A study of Mus musculus with 9 samples.

Results

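The genes described here carry out MHC class I antigen presentation, the display of peptides from inside a cell to CD8+ T cells. They were chosen by name: 3 heavy chains (H2-K1, H2-D1 and H2-M3), the light chain gene B2m, the peptide transporter genes Tap1 and Tap2, the loading factor Tapbp, and the immunoproteasome subunits Psmb8, Psmb9 and Psmb10. Values were analysed for 9 of these 10 genes, out of 12339 genes in all. Psmb8 was not analysed here. All 9 passed the filter on low reads.

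The RNA came from mouse KP-GFP tumour cells of strain C57BL/6 grown as spheroids for 7 days, in 3 groups of 3 libraries. In the first group 2500 tumour cells per spheroid grew alone. In the other two groups 5000 alveolar macrophages, the tissue-resident macrophages (TRMs) of the lung, or 5000 bone-marrow monocytes were added to the same number of tumour cells. The labels do not give the alleles of the KP cells, nor whether the line is 1 clone. Each library came from a pool of 32 spheroids that was dissociated at 37 °C over 20 min and sorted for GFP, with 20000 to 170000 sorted cells, so every group shares the GFP label, the sort and the dissociation. Nothing in the labels states that the 3 libraries of a group came from independent cultures. The p-values therefore rest on the spread among libraries, which may be technical. In bulk RNA, fewer cells of a type and less RNA per cell cannot be told apart.

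As background, the proteasome cuts cytosolic proteins into peptides, and in cells exposed to interferon the subunits Psmb8, Psmb9 and Psmb10 take the place of the constitutive Psmb5, Psmb6 and Psmb7. The TAP transporter, a pair of Tap1 and Tap2, carries peptides into the endoplasmic reticulum, where tapasin (Tapbp) holds the transporter next to empty class I molecules. A heavy chain leaves for the cell surface once it has bound B2m and a peptide. Interferon-gamma and NF-kappaB signalling are the best known inducers of these genes, and tumours often carry low levels of them.

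The sorted libraries had between 16001895 and 32771448 reads. The epithelial markers Epcam, Cdh1, Krt7, Krt8, Krt18, Krt19, Cldn4, Cldn7 and Elf3 summed to between 15347 and 17274 CPM in cells grown alone. Their sum was between 15395 and 19435 CPM in TRM co-culture, where Cldn4 was called lower by limma. The sum was between 10565 and 16582 CPM in monocyte co-culture, where Cdh1, Cldn7, Cldn4 and Elf3 were called lower by limma. CPM here means reads plus 0.5, scaled to a common library size. The lung lineage markers Nkx2-1 and Sftpc were not analysed here, so the lung origin of the cells was not checked. Macrophages carry much class I RNA, and their markers were present at low levels. The 12 of 22 listed macrophage markers with values summed to 28.5, 61.1 and 70.3 CPM in replicates 1 to 3 of cells alone. In TRM co-culture the sum was 118, 69.6 and 143 CPM, and in monocyte co-culture 69.6, 87.1 and 79.1 CPM. A single gene, Lyz2, gave 6.80, 26.0 and 34.1 CPM of the sum alone. It gave 56.7, 12.5 and 72.5 CPM with TRMs and 18.8, 16.0 and 30.5 CPM with monocytes. Mrc1, a mannose receptor of macrophages, was called higher in both co-cultures, from 5.12 ± 0.211 CPM to 32.9 ± 9.27 in TRM co-culture and 39.2 ± 7.49 in monocyte co-culture (SD, n = 3). Ptprc, the pan-leukocyte antigen CD45, stood at 1.93 ± 1.34 CPM alone, 1.95 ± 2.19 in TRM co-culture and 0.241 ± 0.287 in monocyte co-culture, the last called lower. Chil3 (12.4-fold) and the alveolar macrophage marker Siglecf (15.4-fold) were also called lower with monocytes. The 5 of 12 monocyte markers with values summed to between 121 and 269 CPM over all libraries. Cd14 made up most of that sum in every library. It was at 213, 105 and 180 CPM in replicates 1 to 3 of cells alone, to which no monocytes were added. Among the 5, F13a1 was called higher in both co-cultures while Plac8 was called lower with monocytes (2.32-fold). The median log2 difference of these 5 was -0.78 with TRMs and -0.59 with monocytes. That of the 12 macrophage markers was 0.87 with TRMs and 0.18 with monocytes. With TRMs against monocytes it was 0.82. Of the markers of other cells, 1 of 8 for dendritic cells, 0 of 10 for T and NK cells, 1 of 6 for B cells and 4 of 10 for endothelium and fibroblasts had values. The part of such cells in the results below was not tested.

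The stretches of DNA just before the start sites are shown first. Whether they bear on the levels reported below was not tested. The sequences are RefSeq's (GRCm38.p6), 250 bases before the RefSeq start of H2-K1, H2-M3 and B2m, written 5′ to 3′ on the strand of the gene. The same window of H2-D1, and the 225 bases between the RefSeq starts of Psmb9 and Tap1, which are read in opposite directions, were searched too. They are not printed, because GENCODE M21 has transcripts of H2-D1 and Psmb9 that start further upstream, so that these windows lie in their exons. The end of the printed H2-M3 window also lies within the GENCODE gene, which starts at chr17:37270220. The last base of the B2m window is the GENCODE start. H2-K1 has 2 RefSeq promoter entries, and the start furthest upstream was used. Capitals mark matches on either strand to an NF-kappaB-like motif (GGG and CC with 5 bases between), to GAANNGAAA and a longer form with 1 more A before its 2 free bases (both like the interferon-stimulated response element, ISRE), and to TGACG (the core of a cyclic AMP response element). The windows are chr17:34000348-34000597 (H2-K1, minus strand), chr17:35262844-35263093 (H2-D1, plus), chr17:37269984-37270233 (H2-M3, plus), chr2:122147437-122147686 (B2m, plus) and chr17:34187331-34187555 (Psmb9 and Tap1, plus).
H2-K1: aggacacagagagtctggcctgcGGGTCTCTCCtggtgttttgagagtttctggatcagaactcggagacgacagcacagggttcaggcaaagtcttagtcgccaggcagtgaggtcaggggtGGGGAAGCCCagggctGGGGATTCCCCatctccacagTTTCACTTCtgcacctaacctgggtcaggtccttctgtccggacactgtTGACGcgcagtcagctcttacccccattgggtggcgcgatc
H2-M3: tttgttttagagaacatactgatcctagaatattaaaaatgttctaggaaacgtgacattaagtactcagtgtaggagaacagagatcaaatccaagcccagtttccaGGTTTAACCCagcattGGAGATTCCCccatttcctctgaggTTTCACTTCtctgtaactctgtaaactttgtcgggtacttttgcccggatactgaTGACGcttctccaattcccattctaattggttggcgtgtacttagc
B2m: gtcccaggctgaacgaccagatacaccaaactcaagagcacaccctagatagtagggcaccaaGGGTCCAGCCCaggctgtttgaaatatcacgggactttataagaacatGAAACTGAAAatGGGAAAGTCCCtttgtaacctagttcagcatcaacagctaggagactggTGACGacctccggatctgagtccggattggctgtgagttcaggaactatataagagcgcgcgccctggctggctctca

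In GENCODE M21 (GRCm38) the genes lie at chr2:122147686-122153083 (B2m), chr8:105935735-105938444 (Psmb10), chr17:33915899-33929292 (Tapbp), chr17:33996017-34000347 (H2-K1), chr17:34181987-34187764 (Psmb9), chr17:34187553-34197225 (Tap1), chr17:34203527-34216321 (Tap2), chr17:35262730-35267499 (H2-D1) and chr17:37270220-37274484 (H2-M3).

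The 3 heavy chain windows hold the same 9 letters, TTTCACTTC, a match to GAANNGAAA on the opposite strand. It begins 90 bases before the RefSeq start of H2-K1, 150 before that of H2-D1 and 101 before that of H2-M3. Of 32851 such windows in the RefSeq table, 6.31% hold a match to GAANNGAAA. Upstream of it lies GGGGATTCCC in H2-K1 and H2-D1 and GGAGATTCCC in H2-M3, all of them matches to the NF-kappaB-like motif, which 45.8% of windows hold. The B2m window has no match to GAANNGAAA but has GAAACTGAAA, a match to the longer form, which 2.98% of windows hold, close to GGGAAAGTCC. The window between Psmb9 and Tap1 matches the NF-kappaB-like motif and TGACG and neither ISRE-like motif. A motif like the gamma-activated site, TTCNNNGAA, which is not capitalised and which 7.02% of windows hold, had a match in the H2-M3 window (TTCTAGGAA, 209 bases before the start) and in none of the other 4 windows. TGACG, found in 17.8% of windows, occurs in all 5. These are matches of letters, and nothing here measures binding.

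Genes of the class I family resemble each other, and 9.63% of the 50-base stretches of annotated H2-K1 transcripts and 12.8% of those of H2-D1 also occur in other genes, mostly H2-Q10, H2-Q1, H2-Q7 and each other. Values of H2-K1 and H2-D1 are uncertain to that extent. For H2-M3 the share was 0.576%, and for B2m and Psmb10 it was 0. It was largest for Tapbp at 23.2%, mostly with Gm19412, and was 11.6% for Tap2, 4.19% for Psmb9 and 3.33% for Tap1. Exons of Tap1 and Psmb9 overlap on opposite strands in GENCODE M21, as do those of Tap2 with Gm15821 and Gm20496 and of Tapbp with Gm19412. The counting is not stated to use strand, so reads in those overlaps cannot be assigned. Exons of Tapbp also overlap those of Zbtb22 on the same strand, where strand could not assign reads.

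Among tumour cells alone, levels per kb of exon fell into a steep order. B2m stood highest at 214 ± 18.8 CPM per kb, followed by Tapbp at 53.4 to 74.9, H2-K1 at 38.6 ± 2.02 and H2-D1 at 26.6 ± 1.90 (SD, n = 3). Psmb10 was at 9.15 to 11.4 and H2-M3 at 2.20 ± 0.889 CPM per kb. The transporter genes and Psmb9 were near the bottom, Tap2 at 0.878 ± 0.147, Tap1 at 0.363 ± 0.0803 and Psmb9 at 0.225 ± 0.0697 CPM per kb. The ranges of neighbours in this order did not overlap, except those of Tap1 and Psmb9. With TRMs the ranges of Tapbp and H2-K1 overlapped too, and with monocytes those of H2-K1 and H2-D1 did. Exon lengths are unions over annotated transcripts and can exceed the length of the main transcript.

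**Figure D1:**
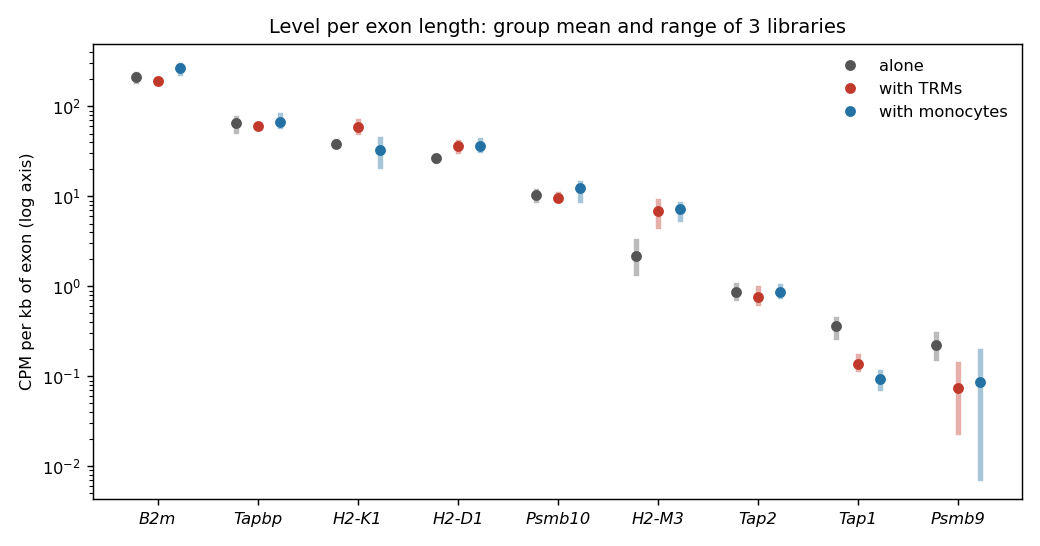
Level per kb of exon (log axis) of the 9 genes in tumour cells alone, with TRMs and with monocytes. Points are means of 3 libraries and bars run from the lowest to the highest library. B2m is highest and Tap1 and Psmb9 are lowest in every group.

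With TRMs, the heavy chains lay higher and the light chain did not. H2-M3 was the one member that passed the test against cells alone. H2-M3 encodes a non-classical heavy chain known for binding formylated peptides, such as those of mitochondria and bacteria. Its level was 2.03, 2.92 and 4.55 CPM in replicates 1 to 3 of cells alone, and in TRM co-culture it was 6.73, 12.6 and 10.53 CPM. Every TRM library lay above every library alone. Its level rose 3.21-fold (limma, log2 1.68, SE 0.36, 95% interval 0.92 to 2.45, adjusted p = 0.00529). In this comparison 18.4% of 12326 genes were called, so 1 of 9 members is no more than the background.

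H2-K1 and H2-D1 encode the classical heavy chains that present peptides to most CD8+ T cells. H2-K1 was at 119.9, 112 and 108 CPM in cells alone, and with TRMs at 199.9, 169.9 and 153 CPM. The groups did not overlap, but the 1.53-fold difference missed the threshold (log2 0.61, SE 0.21, 95% interval 0.17 to 1.05, limma adjusted p = 0.0564). H2-D1 was at 69.1, 63.7 and 73.4 CPM alone, and in TRM co-culture at 105, 91.3 and 82.9 CPM. Here too every TRM library was the higher, and the 1.35-fold difference missed the threshold (log2 0.43, SE 0.15, limma adjusted p = 0.0615). Both sat near the threshold. H2-K1 passed in DESeq2 (adjusted p = 0.0279), in limma-voom (0.0496), in limma on these 2 groups alone (0.00723) and in limma with a replicate block. It also passed in limma without monocyte replicate 2 (0.0196) or 3 (0.0164). H2-D1 passed in DESeq2 (adjusted p = 0.0479), in limma on these 2 groups alone (0.0416) and without monocyte replicate 1 (0.0361) or 3 (0.0499). The authors' deposited table gave H2-K1 1.51-fold higher with a false discovery rate of 0.00126, and H2-D1 1.33-fold higher with 0.044. Groups did not overlap for 5 of the 9 members, the 3 heavy chains above and Tap1 and Psmb9 below, against 39.3% of all genes.

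B2m, the light chain needed by all of these heavy chains, was at 167, 185 and 199 CPM in cells alone, and in TRM co-culture at 159, 172 and 158 CPM. The groups overlapped (log2 -0.17, 95% interval -0.45 to 0.11, limma adjusted p = 0.411). The ratio of H2-K1 to B2m within a library was 0.718, 0.607 and 0.543 alone and 1.26, 0.987 and 0.967 with TRMs. All 3 TRM libraries exceeded all 3 libraries alone, by 1.72-fold on average, with an exact two-sided permutation p of 0.1, the smallest that 3 against 3 can give (adjusted p = 0.15 over 6 ratio tests). The ratio of H2-D1 to B2m ranged from 0.344 to 0.414 alone and from 0.525 to 0.657 with TRMs, with the same exact permutation p of 0.1.

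**Figure D2:**
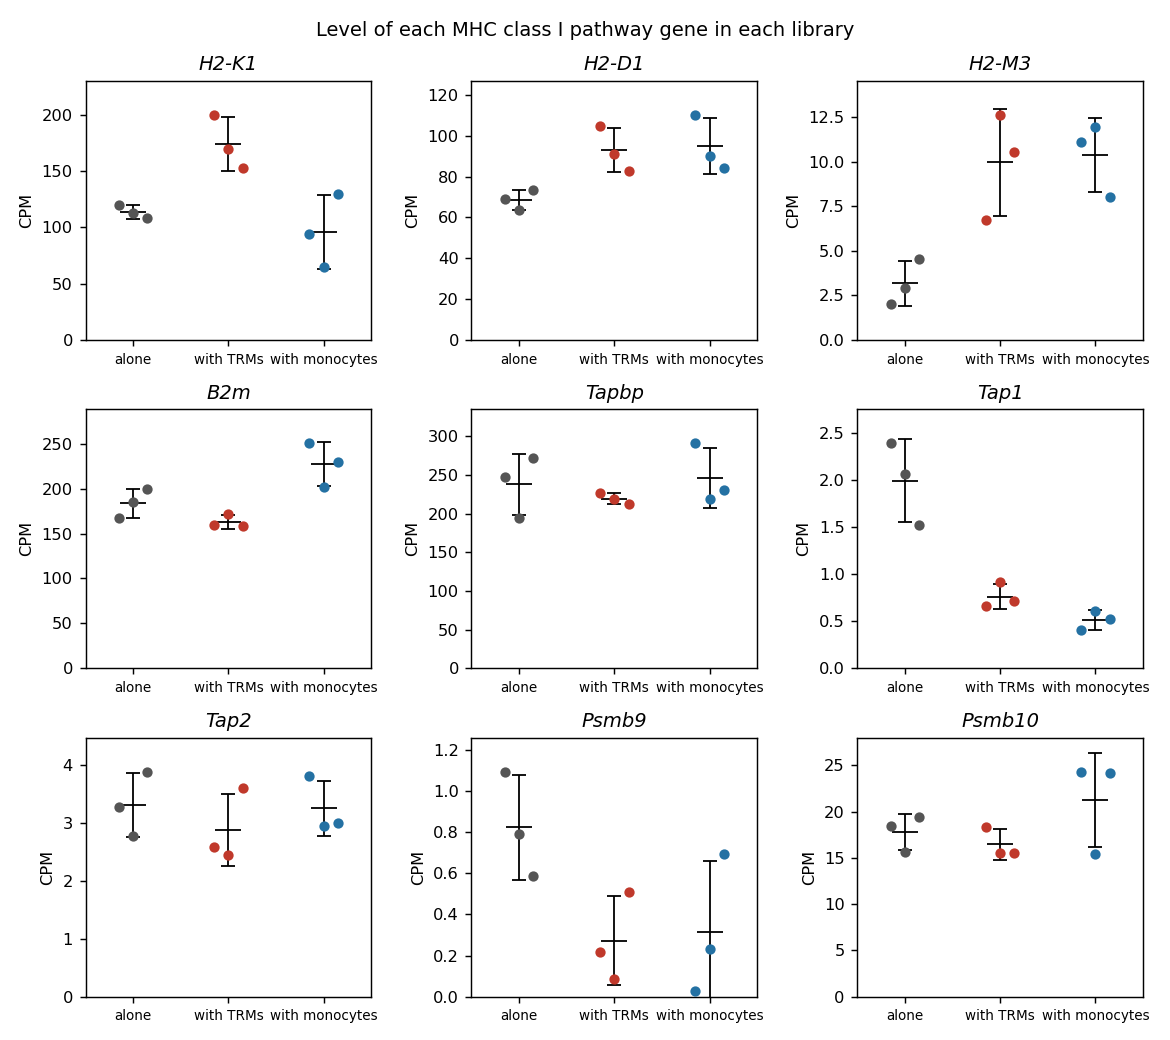
Level in CPM of each gene in each library, with the group mean and SD (n = 3); the vertical axes start at 0 and the lower SD bar of Psmb9 with monocytes runs below 0. H2-M3 lies higher in both co-cultures, H2-K1 lies highest with TRMs, and Tap1 lies lower in both co-cultures.

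The other members gave no call with TRMs. Tap1, the first chain of the peptide transporter, was at 2.39, 2.06 and 1.52 CPM in cells alone, and in TRM co-culture at 0.657, 0.914 and 0.713 CPM. Those levels are 53, 45 and 50 reads against 10, 15 and 17, and the groups did not overlap. The log2 difference of -1.38 had a 95% interval of -2.81 to 0.06 (limma adjusted p = 0.179). Tap2, its partner, ranged from 2.79 to 3.89 CPM alone and from 2.45 to 3.60 CPM with TRMs (limma adjusted p = 0.751). Tapbp ranged from 194 to 272 and from 213 to 227 CPM (limma adjusted p = 0.703), and Psmb10 from 15.6 to 19.4 and from 15.5 to 18.4 CPM (limma adjusted p = 0.775). Psmb9, an immunoproteasome subunit that replaces Psmb6, had 24, 17 and 19 reads alone and 3, 1 and 12 with TRMs. Its log2 difference of -1.90 could lie anywhere between -5.06 and 1.26 (limma adjusted p = 0.416). The median log2 difference of the 9 members was -0.11, and that of all genes -0.002.

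With monocytes, the pattern of the heavy chains was uneven. H2-M3 and H2-D1 rose, Tap1 fell, and the other 6 members did not pass. H2-M3 was at 11.1, 11.96 and 8.01 CPM, all above the libraries alone, and rose 3.404-fold (limma, log2 1.77, SE 0.36, adjusted p = 0.00266). H2-D1 was at 110.2, 90.0 and 84.1 CPM, also all above, and rose 1.37-fold (limma, log2 0.46, SE 0.15, adjusted p = 0.0363). In this comparison 27.3% of genes were called, and 3 of 9 members is close to that share. Groups did not overlap for 4 of the 9 (H2-D1, H2-M3 and B2m above, Tap1 below), against 40.5% of all genes. The monocyte and TRM comparisons share the libraries alone, so they are not independent.

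Tap1 was at 0.405, 0.607 and 0.526 CPM with monocytes, or 7, 14 and 12 reads, and every library lay below those alone. The fall was 3.86-fold (log2 -1.95, SE 0.67, 95% interval -3.39 to -0.51, limma adjusted p = 0.0445). The adjusted p stayed under the threshold in DESeq2 (0.0125) but not in edgeR (0.052), limma-voom (0.0674), limma on these 2 groups alone (0.0687), or without any 1 library other than TRM replicate 1 (0.053 to 0.144). The call of H2-D1 was lost when libraries were scaled by their totals (0.0638) and in limma on these 2 groups alone (0.0545). It was also lost without any 1 of the libraries of cells alone (0.0656 to 0.0983), without TRM replicate 2 (0.0544), and without monocyte replicates 1 (0.117) or 2 (0.0623). With a replicate block, either the call of Tap1 or that of H2-D1 was lost as well. The call of H2-M3 was kept in both co-cultures in every alternative run. The authors' deposited table called H2-M3 (3.14-fold, false discovery rate 0.00381) and H2-D1 (1.36-fold, 0.0477), and gave Tap1 a false discovery rate of 0.21.

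H2-K1 did not follow the other heavy chains here. It was at 94.1, 64.3 and 129 CPM with monocytes, on both sides of the libraries alone (log2 -0.30, 95% interval -0.74 to 0.14, limma adjusted p = 0.309). Without monocyte replicate 3 the difference was -0.54 and passed (limma adjusted p = 0.037), and without monocyte replicate 2 it was -0.04. B2m was at 250.4, 201 and 229 CPM, above all libraries alone, but its 1.23-fold difference did not pass (log2 0.30, 95% interval 0.02 to 0.58, limma adjusted p = 0.104). The ratio of H2-K1 to B2m was 0.376, 0.319 and 0.564 with monocytes (exact permutation p = 0.2 against alone, adjusted p = 0.24). The ratio of H2-D1 to B2m was 0.44, 0.447 and 0.367, overlapping the libraries alone (exact permutation p = 0.3, adjusted p = 0.3).

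Tap2 ranged from 2.95 to 3.81 CPM with monocytes, Tapbp from 219 to 291 and Psmb10 from 15.4 to 24.3, with limma adjusted p of 0.97, 0.825 and 0.465. Psmb9 had 0, 5 and 16 reads. The library with 0 reads allows a level of up to 0.162 CPM (3 reads, counting error only). Set against the constitutive subunit it replaces, Psmb9 stood at 0.0119, 0.00729 and 0.00613 of the Psmb6 level in cells alone. In TRM co-culture the ratio was 0.00167, 0.000752 and 0.00501, and in monocyte co-culture 0.00022, 0.00193 and 0.00425. The 0.00022 comes from 0 reads of Psmb9, so it holds only the added 0.5 read and is no measured ratio. Each co-culture lay below the libraries alone (exact permutation p = 0.1, adjusted p = 0.3 over 6 ratio tests), on counts that are very low. Psmb10 stood at 0.273 to 0.409 of the Psmb7 level in cells alone, 0.282 to 0.312 in TRM co-culture and 0.29 to 0.475 in monocyte co-culture, all overlapping.

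**Figure D3:**
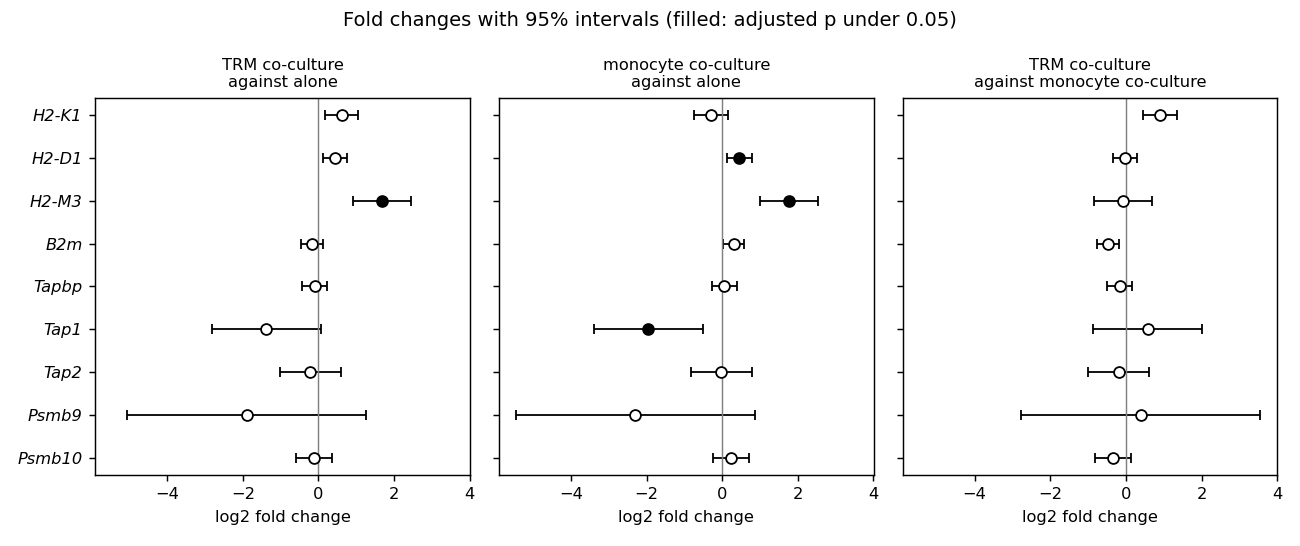
Log2 fold change of each gene with its 95% interval from limma, in 3 comparisons; filled points have an adjusted p under 0.05. H2-M3 is filled in both comparisons with cells alone, H2-D1 and Tap1 with monocytes, and no gene is filled between the co-cultures.

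Between the co-cultures H2-K1 and B2m went opposite ways. H2-K1 was 1.88-fold higher with TRMs than with monocytes, without overlap, and did not pass after adjustment (log2 0.91, SE 0.21, 95% interval 0.46 to 1.35, limma adjusted p = 0.0771). B2m was 1.39-fold lower with TRMs, again without overlap (log2 -0.47, 95% interval -0.75 to -0.19, limma adjusted p = 0.142). None of the 9 members was called by limma, limma-voom or edgeR. Among all genes limma called 0.398%. Groups did not overlap for 3 of the 9 members (H2-K1 and Tap1 above, B2m below), against 16.2% of all genes. At an unadjusted p under 0.05 in limma there were 2 members, against 11.7% of all genes. DESeq2 also called 2, against 2.78% of all genes, H2-K1 (adjusted p = 0.00641) and B2m (0.0293). H2-K1 also passed without monocyte replicate 3 (0.0109), the library in which it was highest among those with monocytes. H2-D1 (95% interval of log2 -0.35 to 0.30) and H2-M3 (-0.85 to 0.68) showed no difference between the co-cultures beyond these intervals.

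The ratio of H2-K1 to B2m was 2.61-fold higher with TRMs than with monocytes, and that of H2-D1 to B2m 1.36-fold higher. Neither overlapped (exact permutation p = 0.1 each, adjusted p = 0.15). Summed epithelial markers were lowest in monocyte replicates 1 and 2, at 10565 and 11721 CPM, the libraries with the lowest H2-K1, and stood at 16582 CPM in replicate 3. The part of this difference in the H2-K1 result was not tested. Krt7, a keratin of simple epithelia, and Wnt7b, a secreted WNT ligand, were among the 3 genes whose profile over the 9 libraries lay closest to that of H2-K1, with root mean square differences of 0.137 and 0.1 on the log2 scale. The other was the desmosomal plakophilin Pkp3 (0.147). Wnt7b was at 250.4 ± 17.2 CPM alone, 380.03 ± 61.6 with TRMs and 197 ± 43.9 with monocytes (SD, n = 3). Closest to B2m were Tmem120b (0.0848), the heat shock protein gene Hsph1 (0.0925) and the cyclin gene Ccnd2 (0.104).

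**Figure D4:**
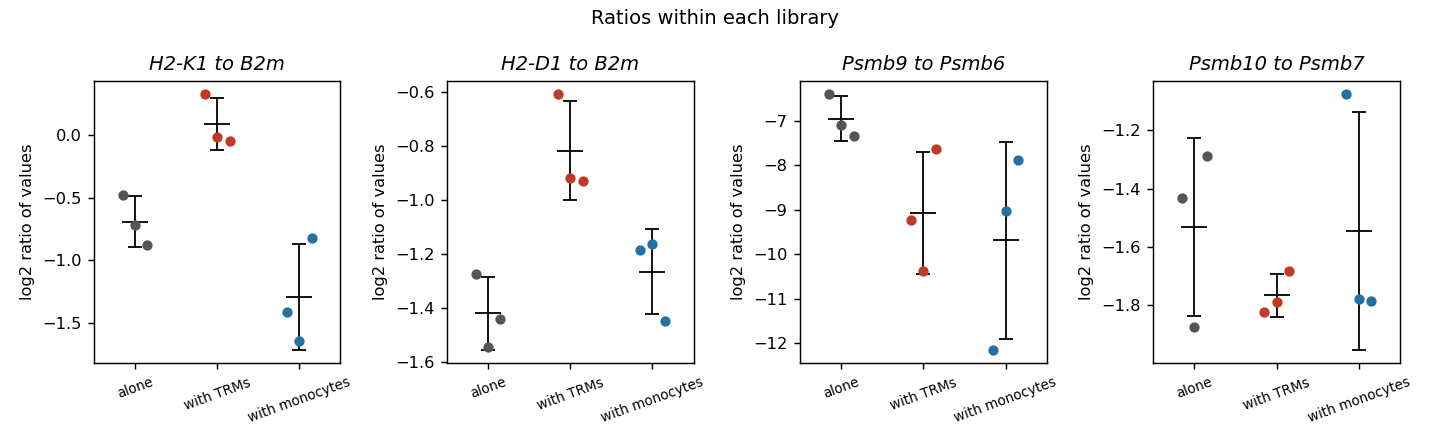
Log2 ratios of values within each library, with the group mean and SD (n = 3), for heavy chain to B2m and for immunoproteasome subunit to the constitutive subunit it replaces. Both heavy chain ratios are highest with TRMs.

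Other genes of the pathway, in lists drawn up with earlier results of these data known, changed in small numbers. Of all genes, 18.4% were called with TRMs, 27.3% with monocytes and 0.398% between the co-cultures. Of 9 other class I and class I-like heavy chain genes tested, 0 were called in any comparison by limma. H2-T23, which encodes the Qa-1 ligand of NK cell receptors, was named after its values were seen. It was at 44.4 ± 5.68 CPM alone, 53.9 ± 9.46 with TRMs and 34.4 ± 3.95 with monocytes (SD, n = 3), the same order of means as H2-K1. Not all of the 9 had this order. With monocytes H2-T22, Cd1d1 and H2-Q4 lay above all libraries alone, though not called. The median log2 difference of the 9 was 0.44 with TRMs and 0.20 with monocytes. Among 12 genes of peptide trimming and loading, 2 were higher and 1 lower with TRMs. The aminopeptidase gene Npepps rose 1.83-fold (limma adjusted p = 0.00201) and the bleomycin hydrolase Blmh 1.57-fold, while Erap1, which trims peptides in the endoplasmic reticulum, fell 1.6-fold (48.3 ± 12.5 to 29.6 ± 2.34 CPM, limma adjusted p = 0.0197). With monocytes Blmh (1.71-fold) and the leucine aminopeptidase Lap3 (1.62-fold) rose and none fell.

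Of the 3 constitutive catalytic subunits, 2 rose with monocytes and 0 passed with TRMs by limma, against 27.3% and 18.4% of all genes called. Psmb5 rose 1.39-fold (limma adjusted p = 0.0445) and Psmb6 1.36-fold (0.0495), while Psmb7 was not called. Of 11 other core subunits 2 rose with monocytes, Psma5 (1.56-fold) and Psmb2 (1.39-fold), and 1 with TRMs, Psma5 (1.39-fold). The assembly factor Pomp rose 1.76-fold with monocytes (47.0 to 55.7 CPM alone, 81.8 to 102.5 CPM with monocytes, limma adjusted p = 0.00138). The interferon-induced activators Psme1 and Psme2, named after their values were seen, were at 63.7 ± 4.70 and 54.9 ± 0.323 CPM alone, with adjusted p from 0.62 to 0.905 against the co-cultures in limma.

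Of 33 regulators of class I genes tested, 2 rose with TRMs, and 2 rose and 1 fell with monocytes. Both shares lie below the 18.4% and 27.3% of all genes called. Those that rose were Socs3 (2.09-fold and 1.75-fold) and Socs1 (2.03-fold and 2.11-fold), both feedback inhibitors of cytokine signalling. Ifngr1, the ligand-binding chain of the interferon-gamma receptor, fell 1.68-fold with monocytes (168 ± 13.6 to 100.8 ± 13.4 CPM, limma adjusted p = 0.00168). Nlrc5, the class I transactivator, was at 0.915 ± 0.757 CPM alone, 1.74 ± 1.33 in TRM co-culture and 0.738 ± 0.781 in monocyte co-culture (SD, n = 3). It was not called, and is named after its values were seen.

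Interferon-induced genes moved in both directions. Of 35 tested, 3 rose and 4 fell with TRMs, and 7 rose and 3 fell with monocytes, shares close to the 18.4% and 27.3% of all genes called. Ifit1bl1 fell in both (log2 -3.39 and -3.34), as did the RNA sensor Ifih1 (2.11-fold and 2.03-fold), and the chemokine gene Cxcl10 fell with TRMs (3.49-fold). Ube2l6, an enzyme that attaches ISG15, rose in both (2.09-fold and 1.98-fold), as did Ifi27 (1.62-fold and 2.03-fold). Bst2 (tetherin) rose 2.28-fold and Gbp4 6.04-fold with monocytes; with TRMs they stood at log2 0.36 (limma adjusted p = 0.298) and 1.44 (0.0958). Of 6 MHC class II genes tested 0 were called by limma. Among 7 ligands of T and NK cell receptors, the galectin gene Lgals9 fell in both co-cultures (2.05-fold and 2.12-fold) and Raet1e, an NKG2D ligand, rose in both (1.84-fold and 1.78-fold). Ulbp1, another NKG2D ligand, rose 2.07-fold and Nectin2 fell 1.61-fold with monocytes.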

How the data were processed

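RNA of sorted GFP-positive cells was made into SMART-Seq v4 cDNA from 1 ng of RNA, per the labels' protocols. STAR 2.5, edgeR and mm10 are named in the submitters' processing notes; how reads were counted, and over which annotation, is not given in the sources used here. Per the values themselves, the deposited values are a normalised signal: each is a whole number of reads plus 0.5, divided by a scaled library size (CPM) that equals the library total times edgeR's TMM factor up to a shared factor of 1.000955. Whole reads were recovered for 111051 of 111051 values (100%, tolerance 1e-06 of a read). The authors' deposited comparison tables give log2 fold changes, a likelihood ratio score and p-values with false discovery rates, per the file headers.

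A filter on recovered reads (edgeR filterByExpr, minimum count 10, minimum total 15) kept 12326 genes and dropped 13. The test was limma 3.58.1 (R 4.3.3, two-sided, with a variance trend) on log2 values of all 9 libraries, with 6 residual degrees of freedom. Genes with a Benjamini-Hochberg adjusted p under 0.05 were called. Fold changes come from differences of mean log2 values and can differ from ratios of mean CPM, most of all for Psmb9. Alternatives used limma-voom, edgeR 4.0.16 and DESeq2 1.42.0 on recovered reads, another scaling, pseudocount or filter, a replicate block, and each library left out. Ratios within libraries were compared with exact permutation tests (scipy). The fit was also run on simulated counts without any replicate effect, and the outcome is not reported here. The members and lists were chosen with earlier results of these data known. All members were named; of other lists, at most 4 called genes per comparison by smallest p, and the 3 genes closest in profile to H2-K1 and to B2m; the same for Psmb8 was planned and not run. Promoter entries of the RefSeq table matched 9 of the 10 listed genes. Gene models are from GENCODE M21 (GRCm38).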

Additional observations from a re-analysis of the deposited data

Results flagged for a closer look

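A gene and a ratio lay on opposite sides of the mean of the tumour cells alone in the co-cultures, in every library. B2m was below it in all 3 TRM libraries (log2 -0.17 on average) and above it in all 3 monocyte libraries (log2 0.30), a difference of -0.47 whose test gave a limma adjusted p of 0.142. The ratio of H2-K1 to B2m was above it with TRMs (log2 0.78) and below it with monocytes (log2 -0.60), a difference of 1.38 (exact permutation p = 0.1, the smallest that 3 against 3 can give). Libraries still overlapped those alone for B2m with TRMs and for the ratio with monocytes. The ratio contains B2m, so these 2 results are not separate. Only the 9 members and 4 ratios were searched, and the share of all genes with this pattern was not counted.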

How the results depend on the processing

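Members called with TRMs against cells alone numbered 1, but 2 in limma-voom, 3 in DESeq2, 3 in limma on these 2 groups alone and 2 with a replicate block (H2-M3 and H2-K1, adjusted p = 0.0468 in limma). With monocytes they numbered 3, but 2 in limma-voom, edgeR, library-total scaling and the replicate block, and 1 in limma on these 2 groups alone. Between the co-cultures they numbered 0, but 2 in DESeq2, and all genes called numbered 49, but 86 in limma-voom, 336 in DESeq2, 75 on log2(value + 1) and 79 with a replicate block. All genes called in the main fit numbered 2262 with TRMs and 3366 with monocytes. Over all alternatives other than leaving 1 library out, these counts ranged from 2183 to 2742 and from 2908 to 3763. Whether libraries with the same replicate number share a batch was not tested. With the group means removed, same-numbered libraries correlated over 0.1 in 5 of 9 pairs (-0.025 to 0.429). With 1 library left out, members called ranged from 1 to 3 with TRMs, from 1 to 3 with monocytes and from 0 to 1 between the co-cultures. All genes called then ranged from 1217 to 2594, from 2240 to 3530 and from 0 to 134.

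The log2 difference of Psmb9 between the co-cultures, 0.40, turned to -0.24 in edgeR, -0.24 in DESeq2 and -0.032 on log2(value + 1). Leaving out 1 library turned the sign of differences near 0: Psmb9 (-0.90 to 1.44), H2-D1 (-0.11 to 0.088) and H2-M3 (-0.28 to 0.18) between the co-cultures, Tapbp with TRMs (-0.24 to 0.00098) and with monocytes (-0.085 to 0.16), and Tap2 with monocytes (-0.14 to 0.10). The same held for the log2 ratios of Psmb9 to Psmb6 between the co-cultures (-0.63 to 1.505) and of Psmb10 to Psmb7 with monocytes (-0.25 to 0.11) and between the co-cultures (-0.34 to 0.016). The cause was not tested. With 1 library left out, a group of 2 is assumed to vary like the others. Tap1 and Psmb9 had at most 53 and 24 reads in a library; the part of depth in their wide intervals was not tested.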
